A study of Homo sapiens with 23 samples.

Results

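Immediate early and short-lived mRNAs were followed in SUDHL5 cells, a human line of diffuse large B cell lymphoma (DLBCL), after treatment with CDK-TCIP1. The set was given as a list of 37 gene symbols, from FOS and JUN family members to phosphatases, decay proteins and kinases, and all 37 were found among the 58592 genes summed from the deposited transcript tables. Of these genes, 17743 had enough counts to be tested, and 35 of the 37 listed genes were among them. KLF4 and DUSP4 were below the count filter, with at most 2 and 6 estimated counts in any library, and are given here by level only.

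CDK-TCIP1 is a bivalent molecule that joins a ligand of the transcriptional repressor BCL6 to an inhibitor that binds the transcription kinase CDK9. Cells received CDK-TCIP1 for 2 h at 10 nM (2 libraries), 30 nM (4 libraries) or 100 nM (3 libraries), or for 4 h at 30 nM (3 libraries). Its controls were the compounds Neg1 (BAK_04_054) and Neg2 (BAK_04_066), each at 30 nM with 2 libraries at 2 h and 2 at 4 h, and DMSO at 4 h (3 libraries). All 23 libraries came from unmodified cells of 1 line grown in serum and carried 0.1% DMSO. Nothing states that libraries of a group came from independent cultures, and p-values therefore cover the spread among these libraries, which may be technical. Neg1 and Neg2 were given at 30 nM only, so the comparisons at 10 and 100 nM are not matched for dose, and the comparisons at the 3 doses share their control libraries.

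Immediate early genes are transcribed within minutes of a signal from existing factors, without new protein synthesis, and in B cells they are known as early targets of antigen receptor signalling. SRF with its ternary complex partners, and CREB, are classical activators at their promoters, and promoter-proximal pausing with release by CDK9 is a known control point. Their mRNAs are short-lived, in part because AU-rich elements in the 3′ UTR are bound by proteins such as those of the ZFP36 family, which recruit deadenylases.

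The members shared features that the list did not use. The median gene span was 5631 bases for the 37 members and 32101 bases for the 12571 other tested protein-coding genes, and the median number of exons was 3 and 8. The AU-rich pentamer ATTTA (DNA letters) was found in the 3′ UTR of 35 members, or 94.6%, against 63.8% of the other genes. The longer nonamer TTATTTATT, a preferred site of ZFP36 proteins, was found in 12 members, or 32.4%, against 7.04% of the others. The median 3′ UTR was 1211 bases in members and 819 bases in the other genes, and the median density of ATTTA was 2.38 and 1.4 per kb.

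**Figure D1:**
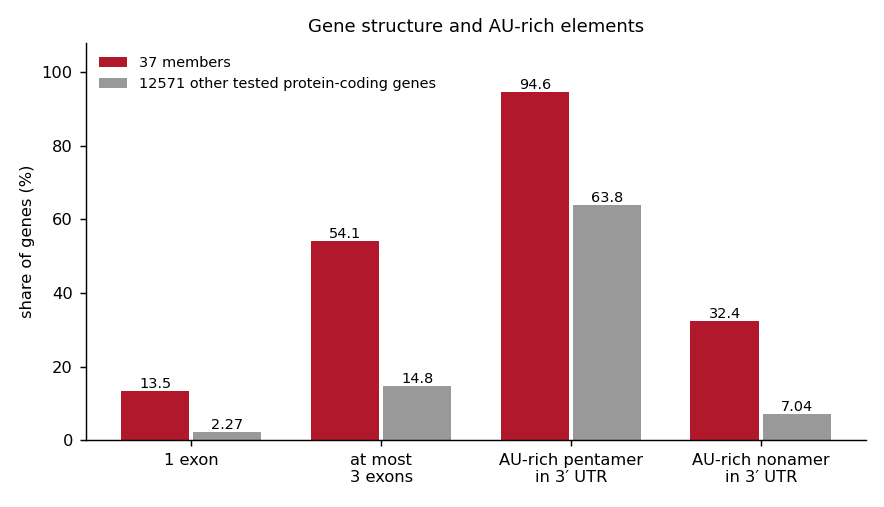
Share of genes (%) with 1 exon, with at most 3 exons, and with the AU-rich pentamer or nonamer in the 3′ UTR, for the 37 members (red) and the 12571 other tested protein-coding genes (grey). Members had the higher share in each category, for example 54.1% against 14.8% for at most 3 exons.

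Nonamer sites are shown for 9 members, all of which fell, rose or stood out by time in the results that follow. DUSP1 holds 2 nonamers, of which the first is shown. Each line is 30 bases of the GRCh38 3′ UTR, 5′ to 3′ on the gene's strand, with the nonamer in capitals.
FOS chr14:75282060-75282089 (+): tgtttttaatTTATTTATTaagatggattc
FOSL2 chr2:28416355-28416384 (+): atttattttaTTATTTATTttaaatgttta
CSRNP1 chr3:39142884-39142913 (-): ttctctggatTTATTTATTtgttttaactt
DUSP1 chr5:172768642-172768671 (-): gggctggtccTTATTTATTtaacttcaccc
ZFP36 chr19:39409196-39409225 (+): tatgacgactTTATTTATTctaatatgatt
ZFP36L1 chr14:68788076-68788105 (-): aactgttggaTTATTTATTttagaaattcc
ZFP36L2 chr2:43223447-43223476 (-): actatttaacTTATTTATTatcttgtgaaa
IER5 chr1:181092447-181092476 (+): cttcctTTATTTATTTATTTATTtaattat
PIM1 chr6:37174989-37175018 (+): atgtatTTATTTATTTATTTATTtggttcc
IER5 and PIM1 each hold 3 overlapping nonamers in this window, and both were higher with CDK-TCIP1 at 4 h. IER2 and BTG1, also higher at 4 h against Neg1 and Neg2, hold no nonamer, and IER5 fell at 100 nM for 2 h. The other 3 members with the nonamer were DUSP4, MAFF and SRF, of which MAFF and SRF also fell in some comparisons. JUN, DUSP2 and PIM3, which fell at every dose, hold no nonamer but have 3, 3 and 4 pentamers.

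The promoters of EGR1 and SRF are shown because they hold the binding site of SRF, the CArG box, and because the mRNAs of the factor and its target were read side by side. Each is 300 bases of RefSeq GRCh38.p14, 250 before to 50 after the annotated start, with the CArG boxes in capitals.
EGR1 chr5:138465229-138465528 (+): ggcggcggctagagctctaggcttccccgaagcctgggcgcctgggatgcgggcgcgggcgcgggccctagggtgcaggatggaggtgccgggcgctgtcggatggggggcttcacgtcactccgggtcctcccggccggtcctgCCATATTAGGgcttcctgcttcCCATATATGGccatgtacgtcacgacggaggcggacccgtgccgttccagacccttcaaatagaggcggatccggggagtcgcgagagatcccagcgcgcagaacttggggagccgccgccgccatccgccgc
SRF chr6:43171019-43171318 (+): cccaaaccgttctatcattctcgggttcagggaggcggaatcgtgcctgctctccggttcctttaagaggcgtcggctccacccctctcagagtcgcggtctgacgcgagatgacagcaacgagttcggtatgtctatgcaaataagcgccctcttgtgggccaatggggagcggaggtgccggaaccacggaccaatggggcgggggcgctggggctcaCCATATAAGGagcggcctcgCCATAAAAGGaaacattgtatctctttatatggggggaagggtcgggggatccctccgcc
The boxes begin 105 and 83 bases before the EGR1 start and 30 and 10 bases before the SRF start. Across the 39 promoter windows held for 30 members, a CArG box on either strand was found in 3 (EGR1, EGR2 and SRF), or 7.69%, against 1.29% of 35116 windows of all genes. The cyclic AMP response element TGACGTCA was in 4 windows (DUSP1, JUND, MAFF and ZFP36L1), or 10.3% against 1.85%. TATAAA was in 7, or 17.9% against 11.5%, the AP-1 site TGANTCA in FOSL2 alone, or 2.56% against 7.71%, and the EGR site GCGTGGGCG in none of these windows, against 0.795%. A site of the form TTCCNNGAA was in EGR1 and MAFF, or 5.13% against 4.45%. All motifs were sought on both strands, and the SRF match to TATAAA is on the reverse strand, after the start. Over 16358 windows of tested genes the shares were 1.15% for the CArG box, 2.67% for TGACGTCA and 6.85% for TATAAA. There they were 5.31% for TGANTCA, 1.19% for GCGTGGGCG and 4.21% for TTCCNNGAA. These are matches of letters only, and sites outside the 300-base windows were not sought.

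The libraries held 17396484 to 26373153 estimated counts. All 7 B cell markers were present, and after 4 h their sum was 2018 to 2178 CPM (counts scaled to a common library size after TMM normalisation) with CDK-TCIP1, against 2507 to 2554 CPM in Neg1, 2514 to 2571 CPM in Neg2 and 2442 to 2561 CPM in DMSO. Of the 7, 5 fell at 4 h against Neg1 and Neg2 and against DMSO (BCL6, CD79B, MME, MS4A1 and PAX5; medians of all 7 were -0.25 and -0.30), and the part of this shift in the 4 h results was not tested. At 2 h the sums were 2323 to 2846 CPM with CDK-TCIP1, against 2465 to 2628 CPM in Neg1 and Neg2. In all libraries 18 markers of other cell types summed to 7.95 to 13 CPM and none of the 5 that could be tested passed the test in the 5 comparisons of CDK-TCIP1 with controls. One 100 nM library, replicate 1, stood apart from its 2 mates on the second principal component (62.8 against 23.5 and 24.9). The share of mitochondrial mRNA was 4.72 to 5.16% at 10 nM, 5.71 to 6.13% at 30 nM and 6.11 to 6.84% at 100 nM after 2 h, and 5.88 to 6.23% at 4 h, against 4.79 to 5.91% over the control libraries. Its part in the results was not tested. In bulk RNA, fewer cells that express a gene and less of its RNA per cell cannot be told apart.

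Under DMSO the members spanned a wide range of levels. In TPM (transcript abundance per length), JUND had the highest level at 225 ± 13.7 TPM (SD, n = 3 for each value here), followed by IER2 at 133 ± 5.24 TPM, ZFP36L1 at 113 ± 4.22 TPM and JUNB at 82.4 ± 1.23 TPM, none overlapping its neighbour. DUSP2 (74.4 TPM) overlapped PIM3 (66.7 TPM), and PIM3 overlapped TOB1 (66.1 TPM). EGR1 (55.6 TPM) overlapped ID3 (50.1 TPM), which overlapped KLF10 (41.8 TPM), above SRF (36.1 TPM) and PIM1 (31.5 TPM). JUN and the Fos family genes were low, unlike JUND and JUNB: JUN had 5.81 ± 0.14 TPM, FOS 4.49 ± 0.724 TPM, FOSL2 1.86 ± 0.331 TPM and FOSB 1.3 ± 0.0708 TPM. EGR2, EGR3, FOSL1, NR4A2, NR4A3, IER3, IER5L and ID1 were all under 1 TPM, so that their folds rest on few counts.

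With CDK-TCIP1 more members fell than rose, and the number called lower at 2 h was larger at each higher dose. The groups at 10, 30 and 100 nM had 2, 4 and 3 libraries. Library number also affects how many genes pass, so these counts do not measure dose alone. Against the mean of Neg1 and Neg2 (log2 scale), 10 of 35 fell and 3 rose at 10 nM, where 13.5% of all genes passed the test (6.76% lower, 6.79% higher). At 30 nM 18 fell and 2 rose (37.1% of all genes passed; 18.0% lower, 19.1% higher), and at 100 nM 22 fell and 2 rose (44.9%; 22.9% lower, 22.0% higher). After 4 h at 30 nM, 10 fell and 4 rose against Neg1 and Neg2 (38.2%; 19.7% lower, 18.5% higher), and 14 fell and 3 rose against DMSO (36.8%; 19.3% lower, 17.5% higher). The test was edgeR's quasi-likelihood test with Benjamini-Hochberg adjustment over all 17743 genes, called at an adjusted p under 0.05. At 10 nM, where 2403 of all genes passed, 978 and 1155 did without replicate 1 and replicate 2 of that dose, and the members called were 8 without Neg1 replicate 1.

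The median log2 fold change of the members was -0.32, -0.34 and -0.71 at 10, 30 and 100 nM for 2 h, -0.17 at 4 h against Neg1 and Neg2, and -0.31 at 4 h against DMSO. Over all genes these medians were 0.008, 0.034, 0.011, 0.032 and 0.034. Among the 10086 genes averaging 2 or more on the log2 CPM scale, which pass the test more often, 24 members remained, of which 9, 15 and 17 fell at the 3 doses against 11.2%, 28.4% and 35.1% of all such genes. At 4 h 9 of the 24 fell against Neg1 and Neg2 and 12 against DMSO, where 30.7% and 30.5% of such genes fell. The CDK-TCIP1 libraries did not overlap those of Neg1 and Neg2 for 19, 22 and 23 members at 10, 30 and 100 nM, against 34.0%, 33.3% and 43.9% of all genes, and for 19 members at 4 h against 44.4%. They did not overlap DMSO for 23 members, against 48.6% of all genes.

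**Figure D2:**
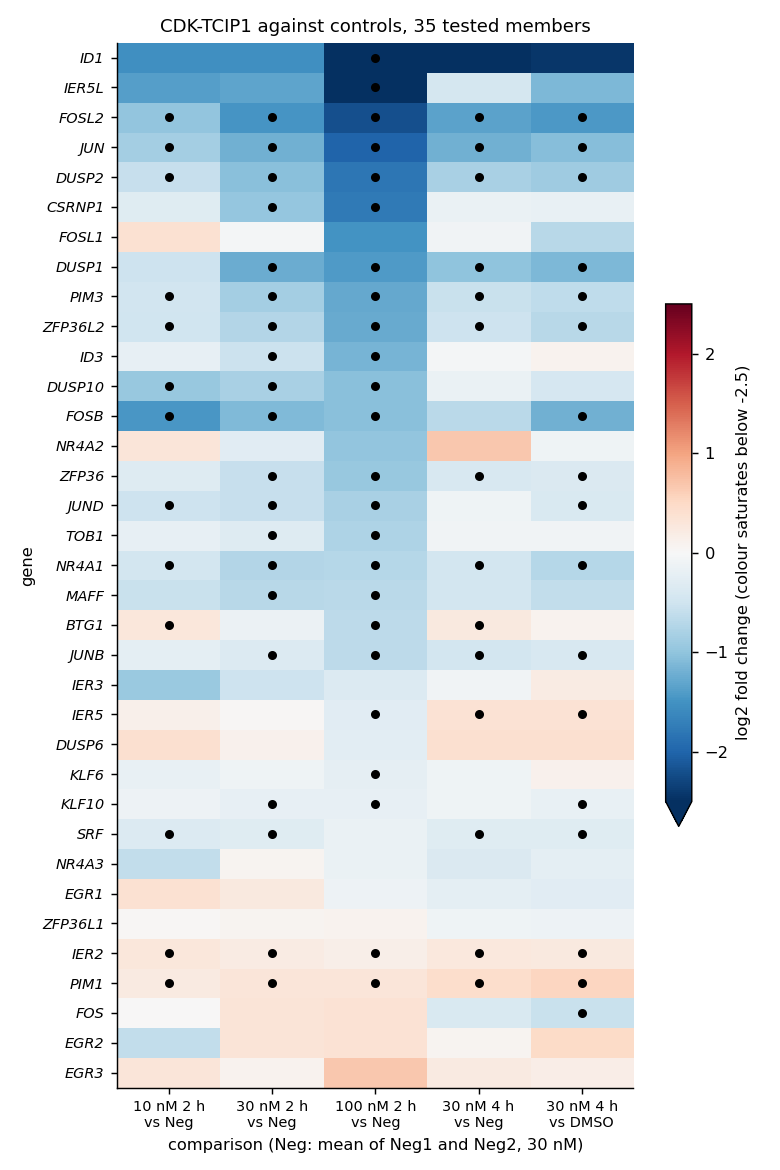
Log2 fold change of the 35 tested members (rows, ordered by the 100 nM value) in 5 comparisons of CDK-TCIP1 with controls (columns), with blue lower and red higher. A dot marks an adjusted p under 0.05 and the colour saturates below -2.5. Dots on blue number 10, 18 and 22 over the 3 doses at 2 h, and 10 and 14 at 4 h.

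**Figure D3:**
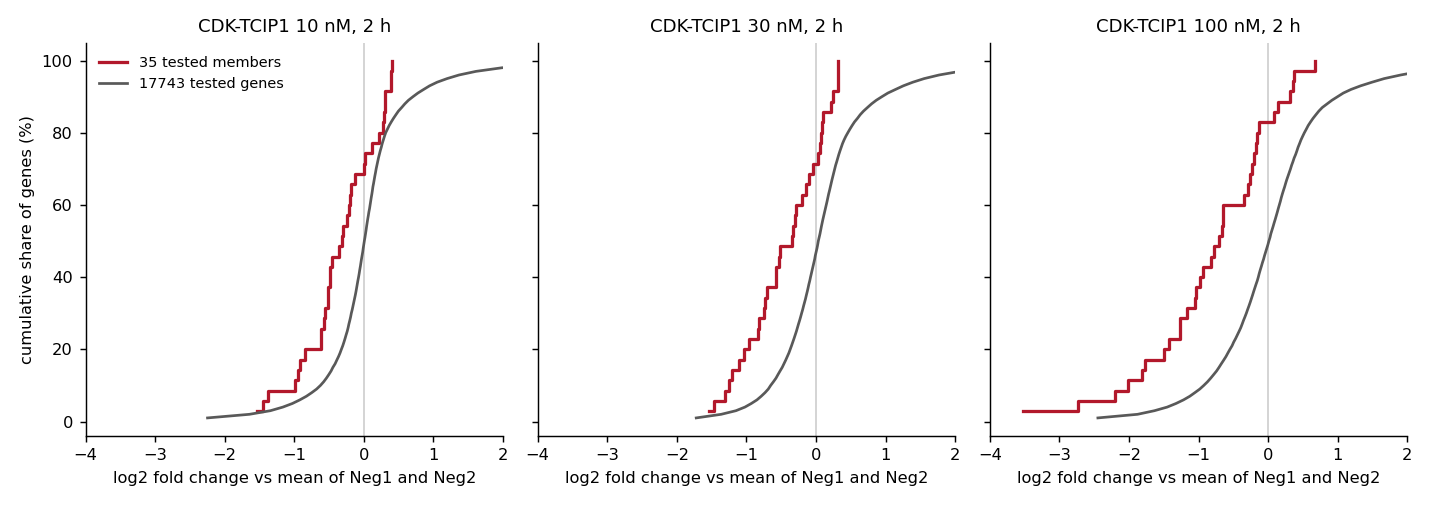
Cumulative share of genes (%) against the log2 fold change at 2 h for 10, 30 and 100 nM CDK-TCIP1 over the mean of Neg1 and Neg2, with 35 tested members in red and 17743 tested genes in grey. The red curve lies left of the grey one through its middle, with medians of -0.32, -0.34 and -0.71, while the largest rises lie outside the members.

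Counts scaled to library totals instead of TMM moved the split of all genes toward lower: 907 higher and 1461 lower at 10 nM (1204 and 1199 with TMM), 2454 and 4095 at 30 nM (3393 and 3189), and 2494 and 5558 at 100 nM (3903 and 4056), where the median of all genes shifted by -0.170. The members' counts under library totals were 12 lower and 1 higher at 10 nM, 19 and 2 at 30 nM, and 23 and 1 at 100 nM. The summed CPM of all 37 members averaged 1672, 1559 and 1374 at 10, 30 and 100 nM and 1606 at 4 h in CDK-TCIP1 libraries, against 1835 and 1739 in Neg1 and Neg2 at 2 h, 1789 and 1699 in Neg1 and Neg2 at 4 h, and 1811 in DMSO.

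JUN, the founding member of the AP-1 transcription factor family, fell at every dose and time. At 2 h JUN had 8.75 and 9.59 CPM at 10 nM, 7.73, 7.15, 6.5 and 7.34 CPM at 30 nM, and 3.79, 4.27 and 4.31 CPM at 100 nM, against 18.2 and 15.2 CPM in Neg1 and 15.9 and 17.1 CPM in Neg2. After 4 h it had 7.32, 6.8 and 6.87 CPM with CDK-TCIP1, against 15.7 and 16.1 CPM in Neg1, 18.2 and 14.6 CPM in Neg2, and 15.1, 14.3 and 14.7 CPM in DMSO. Every CDK-TCIP1 library lay below every control library, and the 3 doses did not overlap one another. The log2 fold change was -0.85 ± 0.12, -1.21 ± 0.10 and -2.01 ± 0.12 (SE) at 10, 30 and 100 nM, a 4.03-fold fall at the top dose (adjusted p = 1.2e-12). At 4 h JUN fell by 1.21 ± 0.11 on the log2 scale against Neg1 and Neg2 and by 1.07 ± 0.11 against DMSO (adjusted p = 5.02e-08).

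FOSL2, a Fos family partner of Jun proteins, fell in the same comparisons. It had 3.99 and 4.34 CPM at 10 nM, 2.81, 2.06, 3.48 and 3.62 CPM at 30 nM and 1.39, 2.05 and 1.97 CPM at 100 nM, against 9.13 and 7.26 CPM in Neg1 and 7.7 and 9.06 CPM in Neg2 at 2 h. At 4 h the levels were 3.37, 2.67 and 3.72 CPM with CDK-TCIP1, against 8.85 and 8.28 CPM in Neg1, 7.42 and 8.21 CPM in Neg2 and 7.84, 8.07 and 10.5 CPM in DMSO. All CDK-TCIP1 libraries were below all controls. The log2 fold changes were -0.99 ± 0.21, -1.47 ± 0.17 and -2.20 ± 0.21 over the 3 doses (adjusted p = 0.00265, 3.4e-07 and 4.47e-09), -1.33 ± 0.19 at 4 h against Neg1 and Neg2, and -1.44 ± 0.20 against DMSO (adjusted p = 2.49e-06). The call at 10 nM was lost without replicate 1 of that dose (adjusted p = 0.0586).

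Counts scaled by transcript length ended the FOSL2 calls in 4 of the 5 comparisons but not at 30 nM for 2 h, with log2 fold changes of -0.03 at 10 nM (adjusted p = 0.994), -0.45 at 100 nM (0.596), -0.32 at 4 h against Neg1 and Neg2 (0.729) and -0.22 against DMSO (0.831). The transcript of 6713 bases held 0 to 21.9 estimated counts at 100 nM, against 125 to 185 in Neg1 and 150 to 205 in Neg2 at 2 h. The other long coding transcript, of 5829 bases, held 11.4 to 23.5 counts at 100 nM. Its 2 h controls held 0 to 9.09 in Neg1 and 0 in Neg2. It held 0 at 10 nM and 0 to 20.4 at 30 nM for 2 h. At 4 h it held 0 to 43.5 with CDK-TCIP1, 11.7 to 34.6 in Neg1, 6.82 to 15.1 in Neg2 and 16.2 to 43.3 in DMSO. Controls at 4 h thus reached the 100 nM level, and the split between the long transcripts varied among groups. Shorter transcripts of 393 and 889 bases held at most 8.8 counts in any group. FOSL2 also overlaps the antisense gene FOSL2-AS1, and reads of the 2 strands cannot be told apart without the strand setting, which no source used here gives. The same holds for members with a gene on the opposite strand, namely FOSB, JUNB, NR4A1, DUSP1, DUSP6, CSRNP1, BTG1, TOB1, MAFF, EGR3, IER2, IER3 and IER5L.

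**Figure D4:**
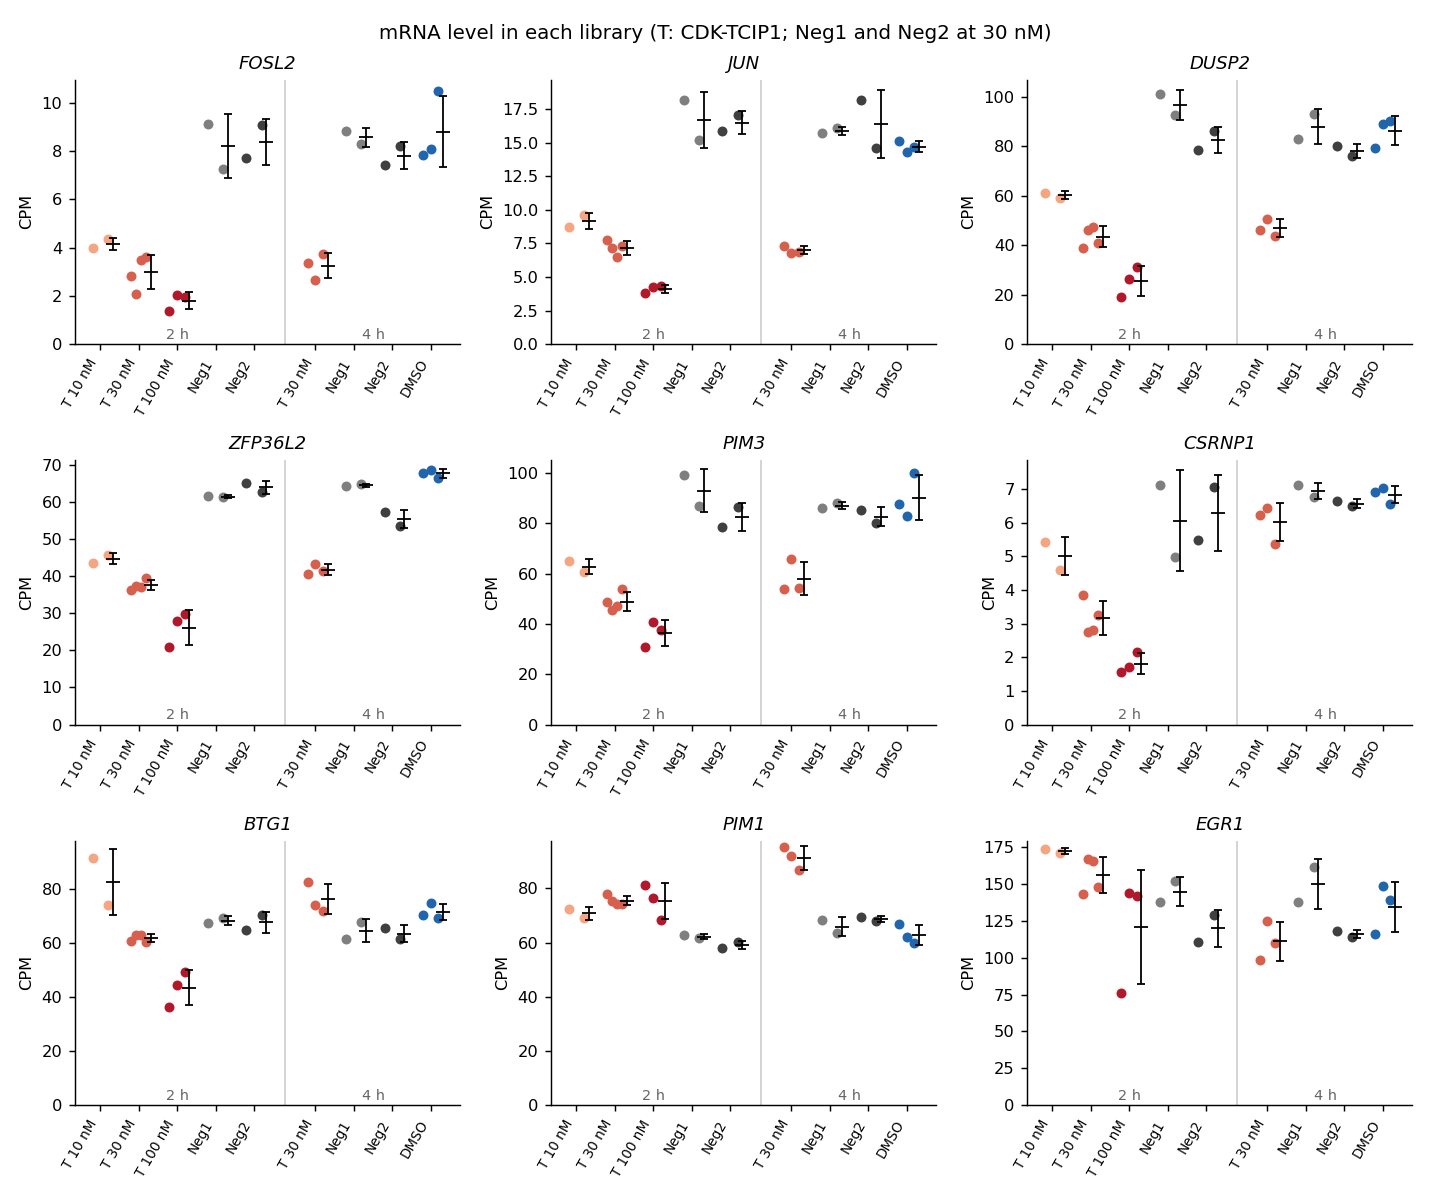
CPM in each library for 9 members, with CDK-TCIP1 (T) at 10, 30 and 100 nM, Neg1 and Neg2 at 2 h, and T at 30 nM, Neg1, Neg2 and DMSO at 4 h. Points are libraries and black marks show the mean ± SD. JUN, FOSL2, DUSP2, ZFP36L2 and PIM3 lie below all controls in each CDK-TCIP1 group, CSRNP1 lies below its 2 h controls at 30 and 100 nM, BTG1 does so at each of these doses with the lowest values at 100 nM, and PIM1 lies above its controls.

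JUNB and JUND are Jun family members that can oppose JUN in growth control. JUNB had 102 and 87.1 CPM at 10 nM, 85.6 to 90.5 CPM at 30 nM and 62.9, 82.2 and 68.3 CPM at 100 nM, against 121 and 114 CPM in Neg1 and 99.1 and 114 CPM in Neg2. It fell at 30 nM (log2 -0.34 ± 0.07, adjusted p = 0.00021) and 100 nM (-0.65 ± 0.07, adjusted p = 6.13e-08), and the value at 10 nM was -0.24 ± 0.08 (adjusted p = 0.0502). At 4 h JUNB had 86.4, 80.5 and 78.7 CPM, against 107 to 116 CPM in Neg1 and Neg2 and 110.3, 105 and 109.9 CPM in DMSO, and it fell against both (log2 -0.46 ± 0.07 and -0.41 ± 0.08).

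JUND, the most abundant member, had 148 and 126 CPM at 10 nM, 136, 127, 128 and 136 CPM at 30 nM and 110.3, 111 and 111 CPM at 100 nM, against 203 and 190.4 CPM in Neg1 and 202 and 186 CPM in Neg2. At 2 h no CDK-TCIP1 library reached a control library. JUND fell by 0.51 ± 0.07, 0.57 ± 0.05 and 0.82 ± 0.06 on the log2 scale (adjusted p = 1.37e-05, 1.24e-08 and 7.09e-11). After 4 h it had 179.9, 159 and 148 CPM with CDK-TCIP1, against 169 and 174 CPM in Neg1, 174 and 179 CPM in Neg2, and 209.6, 215 and 209 CPM in DMSO. The CDK-TCIP1 libraries overlapped Neg1 and Neg2 (log2 -0.10 ± 0.06, adjusted p = 0.194) and lay below DMSO (-0.38 ± 0.06, adjusted p = 3.09e-05). Neg1 and Neg2 were themselves below DMSO for JUND, by -0.30 ± 0.07 and -0.26 ± 0.07, which did not pass adjustment over all genes (adjusted p = 0.998 and 0.785).

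FOS, the Fos family prototype, did not pass the test against Neg1 and Neg2 at 2 h. It had 6.72 and 6.4 CPM at 10 nM, 8.36, 8.73, 7.54 and 8.06 CPM at 30 nM and 7.18, 7.79 and 10.3 CPM at 100 nM, against 9.92 and 7.47 CPM in Neg1 and 4.58 and 5.26 CPM in Neg2. The Neg1 libraries were higher than the Neg2 libraries at 2 h, and CDK-TCIP1 lay between or overlapped them. The log2 fold changes were 0.00 ± 0.18, 0.32 ± 0.15 and 0.36 ± 0.16 (adjusted p = 0.998, 0.0888 and 0.0637). At 100 nM FOS was called higher without replicate 1 of that dose and without Neg1 replicate 1. At 4 h FOS had 3.96, 4.69 and 4.09 CPM with CDK-TCIP1, against 5.15 and 7.29 CPM in Neg1, 5.06 and 4.84 CPM in Neg2, and 5.4, 7.02 and 6.4 CPM in DMSO. All 3 were below every control library of that time, with a log2 fold change of -0.39 ± 0.17 against Neg1 and Neg2 (adjusted p = 0.0668) and -0.56 ± 0.17 against DMSO (adjusted p = 0.0128), the second lost without DMSO replicate 2 (adjusted p = 0.0595) and with length-scaled counts (0.478).

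FOSB and FOSL1, the other Fos proteins, were low. FOSB had 2.02 and 1.01 CPM at 10 nM, 1.09 to 2.43 CPM at 30 nM and 1.5, 1.93 and 2.59 CPM at 100 nM, against 7.7 and 3.3 CPM in Neg1 and 2.82 and 3.31 CPM in Neg2. It fell by 1.45 ± 0.41, 1.11 ± 0.31 and 1.04 ± 0.34 on the log2 scale (adjusted p = 0.017, 0.00587 and 0.0154). Each of these calls was lost without Neg1 replicate 1, the library at 7.7 CPM (adjusted p = 0.0915, 0.0835 and 0.135), and each was lost with length-scaled counts (0.37, 0.153 and 0.203). The call at 10 nM was also lost without replicate 2 of that dose (0.266), and the call at 100 nM without replicate 1 of that dose (0.0813). After 4 h FOSB had 0.864, 1.33 and 1.51 CPM, against 1.56 to 2.52 CPM in Neg1 and Neg2 (log2 -0.67 ± 0.36, adjusted p = 0.148) and 3.68, 2.82 and 2.02 CPM in DMSO. The fall against DMSO (-1.20 ± 0.37, adjusted p = 0.0121) was lost without DMSO replicate 1 (0.0667) or CDK-TCIP1 replicate 1 (0.0654) and with length-scaled counts (0.19). FOSL1 had at most 0.643 CPM in any library, with log2 fold changes of -1.49 ± 0.99 at 100 nM and 0.39 ± 0.93 at 10 nM that did not pass the test.

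EGR1, a zinc finger transcription factor classically induced through SRF, did not pass the test in any of the 5 comparisons with controls. EGR1 had 174 and 171 CPM at 10 nM, 143, 167, 166 and 148 CPM at 30 nM and 75.9, 144 and 142 CPM at 100 nM, against 138 and 152 CPM in Neg1 and 111 and 129 CPM in Neg2. The 10 nM libraries were above all controls, and at 100 nM replicate 1, the library that stood apart, was far below its mates. Log2 fold changes were 0.39 ± 0.15 (95% interval 0.08 to 0.70, adjusted p = 0.0905), 0.24 ± 0.13 and -0.13 ± 0.14 over the doses. At 4 h EGR1 had 98.4, 125 and 110.3 CPM, against 114 to 162 CPM in Neg1 and Neg2 and 116, 149 and 139 CPM in DMSO, or -0.28 ± 0.15 against DMSO (adjusted p = 0.144). Other settings did call EGR1. It was higher at 10 nM with no filter, a replicate block, the groups compared alone and without both libraries doubted (100 nM replicate 1 and Neg2 2 h replicate 1). With no filter and with the groups compared alone, it was higher at 30 nM for 2 h. Those settings also called it lower at 4 h against Neg1 and Neg2 and against DMSO. A replicate block called it lower at 4 h against Neg1 and Neg2. Against Neg1 alone at 4 h EGR1 was lower (-0.43 ± 0.16, adjusted p = 0.0445), and against Neg2 alone it was not called (-0.06 ± 0.16, 0.811). EGR2 and EGR3, of the same family, had 0.219 to 1.25 CPM and 0.654 to 3.22 CPM over all libraries and did not pass the test. At 100 nM EGR3 had 2.67, 3.22 and 2.4 CPM, against 2.17 and 2.16 CPM in Neg1 and 0.654 and 2.08 CPM in Neg2, or 0.68 ± 0.31 (adjusted p = 0.0809).

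SRF itself, the factor that binds CArG boxes, fell at 10 and 30 nM, and its value at 100 nM did not pass the test. Its libraries had 98 and 83.8 CPM at 10 nM, 102, 97.2, 85 and 90.9 CPM at 30 nM and 113, 103 and 92 CPM at 100 nM, against 127 and 107 CPM in Neg1 and 109 and 119 CPM in Neg2. The group mean was higher at each higher dose and under the controls at all 3, with log2 fold changes of -0.35 ± 0.10, -0.30 ± 0.08 and -0.17 ± 0.08 (adjusted p = 0.0158, 0.0032 and 0.109). With library totals and with no filter, SRF was called lower at 100 nM. The same held without 100 nM replicate 1, without Neg1 replicate 2 and without both libraries doubted. At 4 h SRF had 109.8, 96.1 and 85.9 CPM, against 115 to 127 CPM in Neg1 and Neg2 and 126, 122 and 115 CPM in DMSO (-0.30 ± 0.08 and -0.31 ± 0.09). Both 4 h calls were lost without CDK-TCIP1 replicate 3 (adjusted p = 0.0588 and 0.0592), and the 10 nM call without replicate 2 of that dose (0.26) or Neg1 replicate 1 (0.0662).

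NR4A1 encodes an orphan nuclear receptor induced by antigen receptor signals. It had 8.8 and 8.81 CPM at 10 nM, 7.13, 7.46, 6.61 and 8.01 CPM at 30 nM and 7.35, 7.38 and 7.39 CPM at 100 nM, against 12.8 and 12.9 CPM in Neg1 and 9.91 and 12.7 CPM in Neg2. It fell by 0.73 ± 0.12 at 30 nM and 0.71 ± 0.13 at 100 nM on the log2 scale, and 100 minus 30 nM was 0.01 (95% interval -0.25 to 0.28). At 4 h NR4A1 had 9.69, 7.03 and 7.29 CPM, against 10.2 to 12.5 CPM in Neg1 and Neg2 and 13.1, 12.4 and 13.8 CPM in DMSO, or -0.45 ± 0.13 and -0.71 ± 0.13 (adjusted p = 0.00574 and 0.000121), and with length-scaled counts the first was -0.23 (0.485). The call at 10 nM (-0.46 ± 0.14, adjusted p = 0.0332) was lost without either library of that dose (0.201 and 0.173) and without Neg1 replicate 1 (0.0651), Neg1 replicate 2 (0.0719) or Neg2 replicate 2 (0.129). With no filter (0.0932), length-scaled counts (0.394) and the groups compared alone (0.0635) that call was lost as well. NR4A2 and NR4A3 had at most 0.873 and 1.59 CPM and did not pass the test.

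CSRNP1, a nuclear protein with a cysteine- and serine-rich region, fell at 30 and 100 nM after 2 h. CSRNP1 had 5.41 and 4.6 CPM at 10 nM, 3.84, 2.75, 2.81 and 3.25 CPM at 30 nM and 1.56, 1.7 and 2.15 CPM at 100 nM, against 7.11 and 4.99 CPM in Neg1 and 5.48 and 7.07 CPM in Neg2. The 3 doses did not overlap one another, and only the 10 nM libraries overlapped the controls. The log2 fold changes were -0.30 ± 0.19, -0.96 ± 0.16 and -1.77 ± 0.19 (adjusted p = 0.332, 3.47e-05 and 3.21e-08). At 4 h it had 6.23, 6.44 and 5.37 CPM, against 6.48 to 7.11 CPM in Neg1 and Neg2 and 6.92, 7.02 and 6.55 CPM in DMSO, or -0.17 ± 0.16 and -0.18 ± 0.17, neither past the test.

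MAFF, KLF10 and KLF6 passed the test at some doses. MAFF, a small Maf protein without an activation domain, had 2.12 to 3.46 CPM at 30 nM and 1.73, 2.22 and 4.74 CPM at 100 nM, against 4.15 to 4.94 CPM in Neg1 and Neg2, and fell at both doses (log2 -0.70 ± 0.24 and -0.67 ± 0.27, adjusted p = 0.0246 and 0.0459). The MAFF call at 30 nM was lost without replicate 1 or 2 of that dose, Neg1 replicate 1 or Neg2 replicate 1 (adjusted p of 0.0537 to 0.0838), and the call at 100 nM without replicate 1 or 2 of that dose or any of the 4 Neg libraries, 0.275 being the highest. KLF10, a Krüppel-like factor induced by TGF-beta, had 78.2 to 88.9 CPM at 30 nM and 82, 83.7 and 85.7 CPM at 100 nM, against 91.4 to 106 CPM in Neg1 and Neg2. It fell by 0.20 ± 0.06 and 0.21 ± 0.06 at 30 and 100 nM, and both calls were lost without Neg2 replicate 1 (adjusted p = 0.0643 and 0.0646). KLF10 also fell against DMSO at 4 h (-0.19 ± 0.07), a call lost without DMSO replicate 2 (0.103) or CDK-TCIP1 replicate 2 (0.0564) or 3 (0.1). KLF6 had 23.5, 24.5 and 23.9 CPM at 100 nM, against 27.2 to 29.9 CPM in Neg1 and Neg2, or -0.23 ± 0.09 (adjusted p = 0.0419), a call lost without each of the 3 libraries of that dose (0.107, 0.065 and 0.0873), Neg1 replicate 1 (0.0578), Neg1 replicate 2 (0.0709) or Neg2 replicate 1 (0.131). KLF4, a related factor, had 0 counts in 21 of the 23 libraries.

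IER2 was 1 of 2 members that rose at every dose and time. It had 226 and 228 CPM at 10 nM, 216, 221, 218 and 207 CPM at 30 nM and 195, 219.8 and 199 CPM at 100 nM, against 187 and 199.6 CPM in Neg1 and 170.0 and 189.9 CPM in Neg2. The libraries at 10 and 30 nM were above all controls, and those at 100 nM overlapped them. The log2 fold changes were small, at 0.29 ± 0.06, 0.21 ± 0.05 and 0.14 ± 0.05 (adjusted p = 0.00094, 0.000754 and 0.0281), and the value at 100 nM turned to -0.03 when counts were scaled to library totals (adjusted p = 0.647). That call was also lost without replicate 2 of that dose (adjusted p = 0.231), Neg1 replicate 1 (0.188) or Neg2 replicate 1 (0.163). At 4 h IER2 had 215, 226 and 212 CPM, against 172 to 191 CPM in Neg1 and Neg2 and 188, 185 and 182 CPM in DMSO, or 0.27 ± 0.05 and 0.24 ± 0.05 (adjusted p = 9.01e-05 and 0.000827).

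IER5 moved in opposite directions at the top dose and the later time. It had 60.7 and 53.3 CPM at 10 nM, 50.2 to 58.3 CPM at 30 nM and 40.8, 46.3 and 41.7 CPM at 100 nM, against 51.5 and 51.9 CPM in Neg1 and 47.7 and 57.8 CPM in Neg2. At 100 nM it fell by 0.29 ± 0.08 on the log2 scale (adjusted p = 0.00302). At 4 h IER5 had 71.1, 74 and 72.7 CPM, against 60.2 and 53.2 CPM in Neg1, 55 and 58.6 CPM in Neg2 and 55.2, 55.6 and 59.5 CPM in DMSO, all 3 above every control. The rise was 0.36 ± 0.07 against Neg1 and Neg2 and 0.36 ± 0.08 against DMSO (adjusted p = 0.000306 and 0.000685). IER5L and IER3 were low: IER5L had 0.0557, 0.0585 and 0.246 CPM at 100 nM, against 0.642 to 0.927 CPM in Neg1 and Neg2, or -2.74 ± 0.74 (adjusted p = 0.00354), and IER3 had 0.0515 to 1.83 CPM over all libraries with no call.

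DUSP2, a nuclear phosphatase that inactivates MAP kinases, fell in a graded way. It had 61.3 and 59.1 CPM at 10 nM, 38.7, 46.3, 47.5 and 41 CPM at 30 nM and 19.2, 26.3 and 31.2 CPM at 100 nM, against 101 and 92.5 CPM in Neg1 and 78.7 and 86.3 CPM in Neg2. No library of one dose overlapped another dose or the controls. Log2 fold changes were -0.57 ± 0.11, -1.04 ± 0.09 and -1.81 ± 0.11 (adjusted p = 0.00117, 3.01e-09 and 1.42e-12), a 3.51-fold fall at 100 nM. At 4 h DUSP2 had 46.3, 50.7 and 43.7 CPM, against 83.1 and 92.9 CPM in Neg1, 80.2 and 76.1 CPM in Neg2, and 79.5, 89 and 90.4 CPM in DMSO, or -0.82 ± 0.10 and -0.88 ± 0.11.

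DUSP1, a second nuclear MAP kinase phosphatase, had 1.69 and 2.37 CPM at 10 nM, 0.78 to 2.12 CPM at 30 nM and 0.668, 1.11 and 1.48 CPM at 100 nM, against 2.12 to 3.4 CPM in Neg1 and Neg2. It fell at 30 and 100 nM (log2 -1.25 ± 0.30 and -1.42 ± 0.34, adjusted p = 0.00164 and 0.00113). At 4 h it had 1.23, 1.98 and 1.46 CPM, against 2.23 to 3.46 CPM in Neg1 and Neg2 and 3.84, 3.2 and 3.08 CPM in DMSO with a fall against both (adjusted p = 0.0147 and 0.00973). The first of these was lost without CDK-TCIP1 replicate 1 (adjusted p = 0.0727) or Neg2 replicate 2 (0.0687). DUSP10, which acts on the stress kinases JNK and p38, had 3.61 and 3.77 CPM at 10 nM, 3.43 to 4.55 CPM at 30 nM and 2.95, 3.51 and 3.82 CPM at 100 nM, against 6.28 to 8.15 CPM in Neg1 and Neg2. DUSP10 fell at each dose (log2 -0.94 ± 0.19, -0.82 ± 0.15 and -1.05 ± 0.17). At 4 h DUSP10 had 5.78, 5.84 and 4.61 CPM and overlapped Neg1 and Neg2 at 5.57 to 6.87 CPM (-0.17 ± 0.16, adjusted p = 0.419), and its value against DMSO was -0.42 ± 0.17 (adjusted p = 0.0504).

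DUSP6, the cytoplasmic ERK phosphatase, did not pass the test in these 5 comparisons. It had 12.8 and 11.6 CPM at 10 nM, 9.31 to 10.4 CPM at 30 nM and 5.4, 9.43 and 8.25 CPM at 100 nM, against 6.94 to 10.3 CPM in Neg1 and Neg2. At 4 h it had 12.7, 14.2 and 13.3 CPM, against 8.18 and 14.1 CPM in Neg1, 8.32 and 9.84 CPM in Neg2, and 10.6, 11.3 and 8.42 CPM in DMSO. It overlapped Neg1 and lay above Neg2 and DMSO, with 0.41 ± 0.17 against Neg1 and Neg2 (adjusted p = 0.0515) and 0.41 ± 0.18 against DMSO (95% interval 0.04 to 0.77, adjusted p = 0.0748). The first passed with DESeq2, its size factors, no filter, a replicate block, the groups compared alone and without Neg1 replicate 2, the library at 14.1 CPM. The second passed with the groups compared alone. Against Neg2 alone at 4 h DUSP6 was higher (0.56 ± 0.20, adjusted p = 0.0354). DUSP4 had at most 0.369 CPM in any library.

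The 3 ZFP36 genes encode the proteins that bind AU-rich elements and speed decay. ZFP36L2 fell in all 5 comparisons with controls, ZFP36 fell in all but that at 10 nM, and ZFP36L1 did not pass the test in any. ZFP36L2 had 43.6 and 45.7 CPM at 10 nM, 36.3, 37.4, 37.1 and 39.5 CPM at 30 nM and 20.8, 27.8 and 29.8 CPM at 100 nM, against 61.7 and 61.2 CPM in Neg1 and 65.2 and 62.7 CPM in Neg2. The doses did not overlap, and the log2 fold changes were -0.49 ± 0.09, -0.74 ± 0.07 and -1.26 ± 0.08 (adjusted p = 0.000411, 1.1e-08 and 5.15e-12). At 4 h ZFP36L2 had 40.6, 43.3 and 41.3 CPM, against 64.2 and 64.8 CPM in Neg1, 57.2 and 53.6 CPM in Neg2, and 67.9, 68.7 and 66.4 CPM in DMSO (-0.52 ± 0.08 and -0.70 ± 0.08).

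ZFP36 had 20.1 and 18.8 CPM at 10 nM, 15.2 to 17.1 CPM at 30 nM and 9.75, 12.6 and 15.6 CPM at 100 nM, against 27.7 and 26.1 CPM in Neg1 and 19.8 and 23.6 CPM in Neg2. It fell at 30 and 100 nM (log2 -0.58 ± 0.12 and -0.94 ± 0.14, adjusted p = 0.000503 and 4.55e-06), and its value of -0.32 at 10 nM did not pass the test. After 4 h it had 14.1, 22 and 20.5 CPM, against 23.4 to 27.4 CPM in Neg1 and Neg2 and 22.2, 23.7 and 27 CPM in DMSO. Both 4 h calls (adjusted p = 0.0191 and 0.0453) were lost without CDK-TCIP1 replicate 1, the library at 14.1 CPM (0.184 and 0.301). The first was also lost without Neg1 replicate 1 (0.075) and the second without DMSO replicate 2 (0.0628) or 3 (0.157). ZFP36L1, the most abundant of the 3, had 254 to 289 CPM at 100 nM, against 239 to 270.4 CPM in Neg1 and Neg2, and its log2 fold change of 0.09 ± 0.05 had a 95% interval of -0.02 to 0.20. Against Neg1 alone at 4 h ZFP36L1 was lower, with a mean of 233 CPM against 267 CPM (-0.19 ± 0.07, adjusted p = 0.0265). A replicate block called it lower at 4 h against Neg1 and Neg2 and against DMSO. Against DMSO it was also called lower with no filter and without DMSO replicate 1 or CDK-TCIP1 replicate 2. Without 100 nM replicate 1 it was called higher at that dose.

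The PIM kinases, serine/threonine kinases that promote survival, moved in opposite directions. PIM3 had 64.9 and 60.8 CPM at 10 nM, 48.6, 45.7, 47.1 and 54.1 CPM at 30 nM and 30.9, 40.8 and 37.5 CPM at 100 nM, against 99.1 and 87 CPM in Neg1 and 78.7 and 86.6 CPM in Neg2. It fell by 0.48 ± 0.10, 0.84 ± 0.08 and 1.27 ± 0.09 on the log2 scale (adjusted p = 0.0017, 1.12e-08 and 4.55e-11), with no overlap of doses or controls. At 4 h PIM3 had 54.1, 65.8 and 54.3 CPM, against 80 to 88 CPM in Neg1 and Neg2 and 87.8, 82.9 and 100.1 CPM in DMSO (-0.55 ± 0.09 and -0.64 ± 0.09).

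PIM1 had 72.5 and 69 CPM at 10 nM, 77.8, 75.5, 74.2 and 74.2 CPM at 30 nM and 81.4, 76.4 and 68.4 CPM at 100 nM, against 62.8 and 61.6 CPM in Neg1 and 58.1 and 60.2 CPM in Neg2. All 9 were above all 4 control libraries. The rise was 0.22 ± 0.07, 0.31 ± 0.05 and 0.31 ± 0.06 on the log2 scale (adjusted p = 0.0276, 6.12e-05 and 9.73e-05). The call at 10 nM was lost without either library of that dose (0.237 and 0.109) and without Neg1 replicate 1 (0.0595), Neg1 replicate 2 (0.0716) or Neg2 replicate 1 (0.0752). It was also lost with library totals (0.0567), no filter (0.0825), length-scaled counts (0.174) and the groups compared alone (0.0618). At 4 h PIM1 had 95.4, 91.9 and 86.7 CPM, against 63.4 to 69.5 CPM in Neg1 and Neg2 and 66.7, 61.9 and 59.8 CPM in DMSO, or 0.44 ± 0.06 and 0.54 ± 0.06 (adjusted p = 1.13e-06 and 1.81e-07).

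BTG1 and TOB1 belong to a family of antiproliferative proteins that recruit the CCR4-NOT deadenylase. BTG1 had 91.2 and 73.8 CPM at 10 nM, 60.5, 63, 62.7 and 60.2 CPM at 30 nM and 36.4, 44.3 and 49.2 CPM at 100 nM, against 67.1 and 69.3 CPM in Neg1 and 64.7 and 70.3 CPM in Neg2. The 10 nM libraries were above all controls and the 100 nM libraries below them. The log2 fold changes ran 0.28 ± 0.09, -0.14 ± 0.07 and -0.65 ± 0.08 (adjusted p = 0.0377, 0.153 and 5.16e-07). The rise at 10 nM was lost without replicate 1 of that dose (0.587) and without Neg1 replicate 1 (0.0959), Neg1 replicate 2 (0.0635) or Neg2 replicate 1 (0.106). It was also lost with library totals (0.104), length-scaled counts (0.312), a replicate block (0.0515) and the groups compared alone (0.0614). At 4 h BTG1 had 82.3, 73.8 and 71.9 CPM, against 61.2 to 67.5 CPM in Neg1 and Neg2 (0.25 ± 0.08, adjusted p = 0.0149) and 70.2, 74.6 and 69 CPM in DMSO (0.09 ± 0.09). The 4 h call was lost without CDK-TCIP1 replicate 1 (0.106), Neg1 replicate 1 (0.0724) or Neg2 replicate 2 (0.082), and with length-scaled counts (0.208).

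TOB1 had 86.2 and 89.3 CPM at 10 nM, 74.6 to 89.2 CPM at 30 nM and 51.2, 64.3 and 61.5 CPM at 100 nM, against 96 to 104 CPM in Neg1 and Neg2. It fell at 30 and 100 nM (log2 -0.33 ± 0.06 and -0.78 ± 0.07, adjusted p = 0.000101 and 1e-09). At 4 h the levels were 100.5, 95.3 and 100.4 CPM, against 101 to 109 CPM in Neg1 and Neg2 and 104, 104 and 105 CPM in DMSO, which differed by -0.08 ± 0.06 and -0.08 ± 0.07 and did not pass the test. ID1 and ID3 encode helix-loop-helix proteins that sequester E proteins and cannot bind DNA. ID3 had 30.7 and 25.2 CPM at 10 nM, 18 to 26.8 CPM at 30 nM and 12.3, 16.6 and 13.8 CPM at 100 nM, against 28.5 to 34.7 CPM in Neg1 and Neg2. It fell by 0.53 ± 0.11 and 1.17 ± 0.13 at 30 and 100 nM (adjusted p = 0.000496 and 4.85e-08), and at 4 h it had 27.5, 33.8 and 29.6 CPM, against 29.5 to 34.1 CPM in Neg1 and Neg2 (-0.04 ± 0.12). ID1 had 0, 0.0585 and 0.0615 CPM at 100 nM, against 0.302 to 0.839 CPM in Neg1 and Neg2, a call (adjusted p = 0.0288) lost without any 1 of the 3 libraries of that dose (0.106, 0.0611 and 0.0553), Neg1 replicate 1 (0.055) or Neg2 replicate 2 (0.0547).

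Over all doses, 9 members fell at each of 10, 30 and 100 nM (FOSB, FOSL2, JUN, JUND, NR4A1, DUSP2, DUSP10, ZFP36L2 and PIM3), while 5.99% of all genes did so. Among these 9, the 10 nM calls of FOSB, FOSL2 and NR4A1 were lost without single libraries, as were the FOSB calls at 30 and 100 nM. IER2 and PIM1 rose at each dose, as did 5.53% of genes. The IER2 call at 100 nM and the PIM1 call at 10 nM were also lost without single libraries. Group means were in falling order over the doses for 21 of the 35 tested members, against 29.3% of all genes, and in rising order for 6, against 29.4%. In the direct step from 10 to 30 nM, 3 members were lower at 30 nM and none was higher (2.62% of all genes passed; 1.82% lower, 0.800% higher): DUSP2 by -0.48 ± 0.11, BTG1 by -0.42 ± 0.09 and PIM3 by -0.36 ± 0.10. Each of the 3 was lost without 10 nM replicate 1 (adjusted p = 0.168, 0.313 and 0.29), DUSP2 and PIM3 also without 10 nM replicate 2 (0.171 and 0.203), and DUSP2 and PIM3 without 30 nM replicate 1 (0.0651 and 0.0883). Without 30 nM replicate 4 DUSP2 was lost (0.0598), and without 30 nM replicate 2 or 3 PIM3 was lost (0.111 and 0.0836). Of all genes 465 passed this step, against 112 and 52 without 10 nM replicate 1 and 2, and 298 and 273 without 30 nM replicate 2 and 4.

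Between 100 and 30 nM, 12 members were lower at 100 nM and none was higher (12.9% of all genes passed; 8.45% lower, 4.44% higher). CSRNP1 (-0.82 ± 0.20), JUN (-0.80 ± 0.12), DUSP2 (-0.76 ± 0.11), FOSL2 (-0.73 ± 0.22) and ID3 (-0.64 ± 0.13) had the deepest steps, followed by ZFP36L2, BTG1, TOB1, PIM3, IER5, JUNB and JUND at -0.53 to -0.25. The FOSL2 step turned to 1.11 with length-scaled counts (adjusted p = 0.305). Without 100 nM replicate 1, the library that stood apart, 839 of all genes passed in place of 2287, 7 members remained called, and CSRNP1 (adjusted p = 0.0617), FOSL2 (0.205), IER5 (0.0634), JUNB (0.0769) and PIM3 (0.0502) were lost. FOSL2 was lost as well without 30 nM replicate 3 (0.0743) or 4 (0.0748).

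With time at 30 nM, the falls of 10 members held at both 2 and 4 h against Neg1 and Neg2 (DUSP1, DUSP2, FOSL2, JUN, JUNB, NR4A1, PIM3, SRF, ZFP36 and ZFP36L2), and the same 10 fell against DMSO. Against Neg1 and Neg2, another 8 passed as falls at 2 h and did not pass at 4 h (CSRNP1, DUSP10, FOSB, ID3, JUND, KLF10, MAFF and TOB1), of which FOSB, JUND and KLF10 did fall against DMSO at 4 h. BTG1 and IER5 passed at 4 h and not at 2 h, both as rises. Shares of all genes with these patterns over both times were not computed. Against Neg1 and Neg2, 18 of the 35 tested members fell at 2 h, where 18.0% of all genes did. At 4 h 10 of the 35 fell, where 19.7% of all genes did. In the direct comparison of 4 h with 2 h of CDK-TCIP1, 8 members were higher and 3 lower at 4 h (21.9% of all genes passed; 10.3% higher, 11.6% lower). Those higher were CSRNP1 (0.92 ± 0.17), ID3 (0.45 ± 0.12), IER5 (0.45 ± 0.07), JUND, BTG1 and TOB1 (0.30 each), PIM1 (0.28 ± 0.06) and PIM3 (0.25 ± 0.09), and those lower were FOS (-0.94 ± 0.16), EGR1 (-0.49 ± 0.14) and ZFP36L1 (-0.21 ± 0.06). Of these, 5 were lost without a single library: ZFP36L1 (adjusted p = 0.0556), BTG1 (0.0652) and EGR1 (0.075) without 4 h replicate 1, ID3 (0.0619) and PIM3 (0.32) without 4 h replicate 2, and PIM3 without 30 nM 2 h replicate 1 (0.0781), 2 (0.12) or 3 (0.0966).

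The change in the effect itself, 4 h minus 2 h with each set against its own Neg1 and Neg2 libraries, passed the test for 5 members, 4 higher and 1 lower (12.0% of all genes; 5.61% higher, 6.37% lower). It was 0.79 ± 0.23 for CSRNP1, 0.47 ± 0.08 for JUND, 0.39 ± 0.11 for BTG1, 0.33 ± 0.10 for IER5 and -0.71 ± 0.22 for FOS. Leaving out single libraries ended every one of these calls but that of JUND: 10 libraries for FOS (adjusted p of 0.051 to 0.127), 9 for IER5 (0.0537 to 0.102), 7 for CSRNP1 (0.0509 to 0.0958) and 4 for BTG1 (0.0512 to 0.0767). The control libraries moved for JUND, with 174 CPM at 4 h against 195 CPM at 2 h in Neg1 and Neg2 (log2 -0.17 ± 0.05, not past adjustment). Values that did not pass were 0.65 ± 0.22 for DUSP10 (adjusted p = 0.0501), 0.48 ± 0.16 for ID3 (0.0522), 0.25 ± 0.09 for TOB1 (0.0675) and -0.49 ± 0.19 for EGR1 (0.0886). For JUN the change was 0.00 (95% interval -0.33 to 0.33). Between 4 h and 2 h of Neg1 and Neg2 no member and none of all genes passed with edgeR (0% called), with 1394 genes and 3 members (FOSB, JUND and PIM1) under an unadjusted p of 0.05 and 9 genes and 0 members called by DESeq2.

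**Figure D5:**
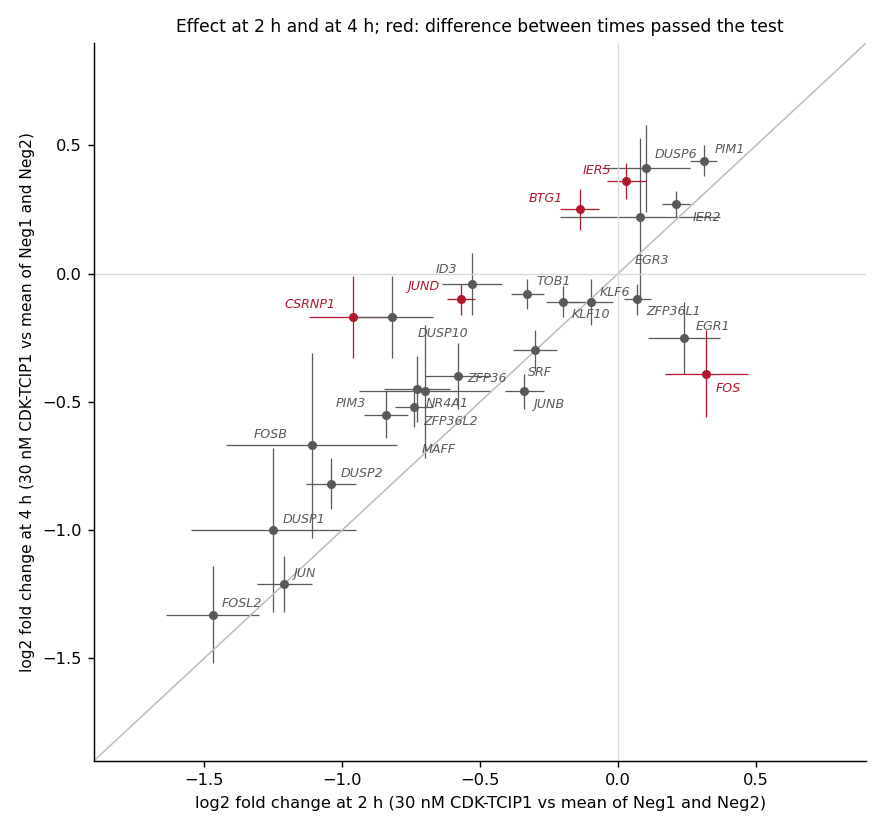
Log2 fold change of 30 nM CDK-TCIP1 over the mean of Neg1 and Neg2 at 4 h (vertical axis) against that at 2 h (horizontal axis) for the 28 members whose average log2 CPM is 1 or higher, with bars of ± SE. The grey diagonal marks equal effects and red marks the 5 members whose difference passed the test: JUND, CSRNP1, BTG1 and IER5 lie above the diagonal and FOS below it.

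At the matched dose of 30 nM, CDK-TCIP1 could be set against each control compound singly, giving 4 pairs (Neg1 and Neg2 at 2 h and at 4 h). It lowered 17 and raised 2 members against Neg1 at 2 h (27.8% of all genes passed) and lowered 16 and raised 3 against Neg2 (30.5%). At 4 h it lowered 13 and raised 3 against Neg1 and lowered 8 and raised 5 against Neg2 (31.1% of all genes in each). In all 4 pairs 10 members passed over all genes: DUSP2, FOSL2, IER2, JUN, JUNB, NR4A1, PIM1, PIM3, SRF and ZFP36L2. The share of all genes that passed in all 4 pairs was not computed, so this count has no background beside it. With p-values adjusted over the 4 pairs of each gene, the largest was 1.34e-09 for JUN, 1.4e-06 for DUSP2, 0.00998 for IER2 and 0.014 for NR4A1. JUN fell by 1.22 ± 0.12 and 1.20 ± 0.12 on the log2 scale against Neg1 and Neg2 at 2 h and by 1.18 ± 0.13 and 1.23 ± 0.12 at 4 h. FOS at 2 h stood at -0.09 ± 0.18 against Neg1 and at 0.73 ± 0.19 against Neg2 (adjusted p = 0.762 and 0.00358). At 4 h FOS was lower against Neg1 (-0.55 ± 0.19, adjusted p = 0.0318) and not called against Neg2 (-0.22 ± 0.20, 0.433).

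Between the control compounds themselves, none of all genes passed (0% called). Among the members FOS had the smallest unadjusted p, with a mean of 7.46 CPM in Neg1 and 4.93 CPM in Neg2 (log2 0.58 ± 0.15, edgeR adjusted p = 1). For JUN the difference between Neg1 and Neg2 was -0.02 (95% interval -0.21 to 0.18), and for FOSL2 it was 0.05 (-0.29 to 0.39). In edgeR no gene passed between Neg1 and Neg2, Neg1 and DMSO, or Neg2 and DMSO, with 683, 770 and 1063 genes and 4, 3 and 2 members under an unadjusted p of 0.05. DESeq2 called 4, 1 and 4 genes in these comparisons and 0 members. Structures of Neg1 and Neg2 are not given by the labels.

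The AU-rich nonamer was found both among members that fell and among the rest. Of 11 tested members with TTATTTATT, 7 fell and 1 rose at 100 nM with a median log2 fold change of -0.67, and of 24 without it 15 fell and 1 rose with a median of -0.74. The medians with and without it were -0.32 and -0.35 at 10 nM and -0.58 and -0.34 at 30 nM for 2 h. At 4 h they were -0.39 and -0.11 against Neg1 and Neg2, where 5 of 11 and 5 of 24 fell, and -0.36 and -0.27 against DMSO. These are descriptions of 35 genes without a test.

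Other immediate early genes also fell more often than they rose at 2 h. Of 39 tested genes of a list of 50, 15 fell and 3 rose at 10 nM (6.76% and 6.79% of all genes), 25 fell and 4 rose at 30 nM (18.0% and 19.1%), and 27 fell and 4 rose at 100 nM (22.9% and 22.0%), with median log2 fold changes of -0.27, -0.51 and -0.77. At 4 h 13 fell and 10 rose against Neg1 and Neg2 (19.7% and 18.5% of all genes), and 13 fell and 9 rose against DMSO (19.3% and 17.5%), with medians of -0.16 and -0.18. The change in effect from 2 to 4 h was higher for 10 and lower for 0 (5.61% and 6.37% of all genes). MYC, the proto-oncogene transcription factor, averaged 59.5 CPM with CDK-TCIP1 at 4 h, against 139 CPM in DMSO (log2 -1.22 ± 0.09), and SGK1, a serum-induced kinase, averaged 25.3 CPM against 103 CPM (-2.03 ± 0.10). Among those that rose were CCNL1, a cyclin of the splicing machinery (209.8 against 114 CPM, 0.88 ± 0.08), and CD69, an activation antigen of lymphocytes (49.4 against 27.7 CPM, 0.84 ± 0.11).

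MCL1, a short-lived survival protein of the BCL2 family, was higher than in the controls at 10 nM and lower at 30 and 100 nM after 2 h, and higher after 4 h. It averaged 785, 613 and 431 CPM at 10, 30 and 100 nM for 2 h, against 674 CPM in Neg1 and Neg2, with log2 fold changes of 0.22 ± 0.06, -0.14 ± 0.05 and -0.64 ± 0.05 (adjusted p = 0.011, 0.0258 and 3.27e-10). At 4 h it averaged 848 CPM, against 685 CPM in Neg1 and Neg2 and 670.4 CPM in DMSO, and the change in effect was 0.44 ± 0.07 (adjusted p = 0.000157). ATF3, a stress-induced factor that dimerises with Jun proteins, fell by 1.08 ± 0.33 and 2.49 ± 0.42 at 30 and 100 nM for 2 h. BTG2, related to BTG1, fell in all 5 comparisons (-0.68 ± 0.09, -0.89 ± 0.07 and -1.13 ± 0.08 over the doses), and PPP1R15A, which directs a phosphatase to eIF2 alpha, fell at 30 and 100 nM (-0.58 ± 0.12 and -0.92 ± 0.14).

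Genes that act upstream or alongside moved in both directions, where 22.0% of all genes rose and 22.9% fell at 100 nM, and 17.5% rose and 19.3% fell at 4 h against DMSO. Of 39 tested genes of the ERK cascade and the SRF and CREB factors, 7 rose and 16 fell at 100 nM, with a median of -0.09, and 5 rose and 15 fell at 4 h against DMSO. ELK3, a partner of SRF (0.78 ± 0.15), and the adaptor GRB2 (0.39 ± 0.04) had the largest rises in that list, and DUSP7, an ERK phosphatase (-1.12 ± 0.10), and the CREB coactivator CRTC3 (-0.83 ± 0.22) the largest falls. Of 17 tested AP-1 and bZIP partners, 4 rose and 11 fell at 100 nM, with a median of -0.30, and 2 rose and 5 fell at 4 h against DMSO. BACH1 (1.10 ± 0.09) and MAFG (0.65 ± 0.06), which dimerise with each other, rose, and ATF5 (-1.09 ± 0.06) and CEBPB (-0.72 ± 0.09) had the largest falls.

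Of 51 tested genes of AU-rich and deadenylation-dependent decay, 10 rose and 17 fell at 100 nM, with a median of -0.04, and 10 rose and 13 fell at 4 h against DMSO, with a median of 0.01. The 4 h counts are near the shares of all genes. The largest rises at 4 h were those of the decapping cofactor DCP1B (0.83 ± 0.14) and the m6A reader YTHDF2 (0.51 ± 0.06), and the largest falls those of the deadenylase PARN (-0.87 ± 0.05) and the AU-rich element binding protein HNRNPD (-0.67 ± 0.07). These largest changes are among called genes with an average log2 CPM from 2 upward.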

How the data were processed

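RNA from SUDHL5 cells was read as poly(A)-selected, paired-end libraries, per the labels. The authors' 23 deposited tables hold kallisto estimated counts and TPM (transcript abundance per length) per transcript, and the submitters' processing notes also name cutadapt, FastQC and DESeq2, without versions. The strand setting and the annotation used are not stated.

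Transcripts were summed to genes by GENCODE 29 (GRCh38): 205964 of 227912 IDs matched, and 1.16 to 1.28% of counts did not. Sums were rounded and tested with edgeR 4.0.16 (R 4.3.3): TMM, filterByExpr, and 1 quasi-likelihood fit of all 23 libraries in 9 groups, with Benjamini-Hochberg adjustment over the 17743 tested genes and a call at 0.05. SE is the size of the log2 fold change over the square root of F, and intervals are 95%. CPM are TMM-scaled, and levels between genes are deposited TPM. The fit was tested on simulated data. Neg stands for the mean of Neg1 and Neg2. Library totals of 17396484 to 26373153 set the precision, and genes under 1 CPM rest on few counts.

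All 37 members were named, and of each other list the called genes with the largest rises and falls at 4 h against DMSO, besides MYC, MCL1, ATF3, BTG2 and PPP1R15A. Members and lists were chosen with earlier results of these data known. Features came from GENCODE 29, and promoter sequences from RefSeq GRCh38.p14. Alternatives were DESeq2 1.42.0, its size factors, library totals, no filter, length-scaled counts, a replicate block, only the groups compared, and leaving out each library. Added after seeing the data was a fit without 100 nM replicate 1 and Neg2 2 h replicate 1. Replicate numbers did not pair libraries.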

Additional observations from a re-analysis of the deposited data

Results flagged for a closer look

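The effect of 30 nM CDK-TCIP1 over Neg1 and Neg2 differed between 4 and 2 h for 5 members, by edgeR's test of that difference with adjustment over all genes. For JUND the difference was 0.47 ± 0.08 on the log2 scale (adjusted p = 0.000387), and it passed under every alternative run. For BTG1 it was 0.39 ± 0.11 (adjusted p = 0.0197), for CSRNP1 0.79 ± 0.23 (0.0233), for IER5 0.33 ± 0.10 (0.0304) and for FOS -0.71 ± 0.22 (0.0353). The BTG1 difference did not pass without Neg1 2 h replicate 2, CDK-TCIP1 4 h replicate 1, Neg1 4 h replicate 1 or Neg2 4 h replicate 2. The highest adjusted p without 1 library was 0.127 for FOS (without Neg1 4 h replicate 2), 0.102 for IER5 (without Neg2 2 h replicate 2) and 0.0958 for CSRNP1 (without Neg1 2 h replicate 1). For FOS, Neg1 stood above Neg2 at 2 h.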

How the results depend on the processing

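Of the values per gene under the alternatives, 4497 stayed on their side of the threshold, 96 newly passed it, 186 no longer did and 2 reversed. A reversal here is a change of sign in a value that passed in either fit. Changes of sign in values that passed in neither fit are counted among the 4497. IER2 at 100 nM was -0.03 with library totals, and FOSL2 between 100 and 30 nM was 1.11 with length-scaled counts. Length-scaled counts also gave 7 called members at 10 nM in place of 13, 0 between 30 and 10 nM in place of 3, and 1 for the change in effect in place of 5, where DESeq2 gave 8 and a fit of the groups compared alone gave 8. With no filter, 1 member was called between Neg1 and Neg2 (EGR1) and 1 between Neg1 and DMSO (JUND), and with the groups compared alone 1 between Neg2 and DMSO (JUND), in place of 0. The causes were not tested.

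Leaving out each library in turn gave 8 to 12 called members at 10 nM, 18 to 20 at 30 nM, 20 to 23 at 100 nM, 12 to 15 at 4 h against Neg1 and Neg2 and 14 to 19 against DMSO. It gave 0 to 2 between 30 and 10 nM, 7 to 14 between 100 and 30 nM, 9 to 12 between 4 and 2 h, and 2 to 5 for the change in effect. Without both libraries doubted, 100 nM replicate 1 and Neg2 2 h replicate 1 (chosen after seeing the data), 16, 19 and 19 members were called at the 3 doses, 10 between 100 and 30 nM and 7 for the change in effect.

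Correlations of deviations between same-numbered libraries ran from -0.0444 to 0.0443 over 78 pairs, so the numbers pair no libraries. A replicate block gave 13, 19 and 23 called members at the 3 doses, 17 and 18 at 4 h against Neg and DMSO, 3 and 12 at the dose steps, 11 between times and 6 for the change in effect.

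Over all genes, length-scaled counts gave 1050 calls in place of 2403 at 10 nM, 82 in place of 465 between 30 and 10 nM, 840 in place of 2287 between 100 and 30 nM, 1882 in place of 3888 between times and 618 in place of 2126 for the change in effect. Between 30 and 10 nM DESeq2 called 807 and the fit with no filter 786. Between 100 and 30 nM the groups compared alone gave 1205 and the fit without both doubted libraries 902. Where the 4 control comparisons had 0 calls, no filter gave 196 (4 against 2 h), 78 (Neg1 against Neg2), 74 and 119 (Neg1 and Neg2 against DMSO). Library totals gave 113 higher and 489 lower in place of 142 and 323 between 30 and 10 nM, 180 and 2399 in place of 788 and 1499 between 100 and 30 nM, 2293 and 1461 in place of 1828 and 2060 between times, and 1182 and 804 in place of 996 and 1130 for the change in effect. The members' splits there were 0 and 4, 0 and 15, 10 and 2, and 7 and 0.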
